A study of Mus musculus with 6 samples.

Results

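Notch receptors, their ligands and the Fringe enzymes that modify the receptors were measured in muscle-derived stem cells and in embryonic stem cells of the mouse. The set holds 10 genes: the receptors Notch1, Notch2, Notch3 and Notch4, the ligands Dll1, Dll4, Jag1 and Jag2, and the Fringe genes Mfng and Lfng. Its members are the 13 probes of these genes, among 55681 probes on the array, found by matching the RefSeq accession that the array gives each probe to a gene symbol. All 13 probes are described, and 11 of them, covering 9 genes, were bright enough to be tested.

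The study asked whether expression profiles define how potent muscle-derived stem cells (MDSC) are, and hybridised 6 RNA samples to 1-colour Agilent arrays. MDSC are the cells that attach last when a digest of hindlimb muscle is moved from dish to dish. Mstn-null MDSC (2 isolations) were isolated from mice labelled as lacking Mstn, which encodes myostatin, a secreted protein that restrains muscle growth, and WT MDSC (2 isolations) came from wild-type mice. All MDSC were from 5 week old male mice and were expanded at passage 1 without treatment. The labels give neither the Mstn allele nor the number of mice behind an isolation. The third group, W4 ESC, is 1 established male mouse embryonic stem cell line at passages 12 and 15, which are counted here as replicates 1 and 2. These are cultures of a single line, so their spread may be smaller than between lines. The growth text describes mouse embryonic fibroblast feeders, removed by a short plating step before RNA was taken, while other label text calls the colonies feeder free. A p-value here measures the spread between these samples only, and 2 arrays a group limit its precision.

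Notch receptors are single-pass membrane proteins that are activated by ligands on neighbouring cells. A bound receptor is cut first by an ADAM protease and then by the gamma-secretase complex, and the freed intracellular part enters the nucleus, where it joins RBPJ and a Mastermind protein and switches on target genes of the Hes and Hey families. Fringe enzymes add a sugar to the receptor's extracellular part and so alter its response to Delta-like and Jagged ligands. In skeletal muscle the pathway is known for keeping satellite cells quiescent, with Dll1 as a ligand and Notch3 as a receptor that limits their proliferation.

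A level below is the log2 processed signal minus the 75th percentile of that array, so 0 is a probe as bright as the 75th percentile and each unit is a doubling. Levels of different probes are not set against each other, because probes differ in how well they bind. A probe was called well above background by the scanner software's own test. Differences come from 1 limma model of the 3 group means over 33714 tested probes, with Benjamini-Hochberg adjusted p-values and a threshold of 0.05. The contrast of both MDSC groups with W4 ESC takes the average of the Mstn-null and WT means and subtracts the ESC mean.

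Arrays had 53.3% to 64.6% of their 59305 spots well above background, and the 75th percentile lay at 550 to 647 intensity units. Slide 1 held the WT arrays and nothing else, and slide 2 held the other 4, so slide and WT genotype cannot be told apart, and Mstn-null MDSC versus ESC is the comparison within 1 slide. The Mstn probe read -3.06 and -2.47 on the arrays labelled Mstn-null, where it was well above background, and -4.90 and -6.71 on the WT arrays, where it was not. It was not above background on the ESC arrays either. The signal on the arrays labelled Mstn-null thus went against a loss of the transcript, and whether the probe lies within the deletion is not given in the sources used here, so it checks the labels only if it does. Every direction between the genotypes rests on these labels. Of 12 pluripotency markers, 12 were well above background on each ESC array and 7 or 8 on the MDSC arrays, and their summed signal, in multiples of the 75th percentile, was 11.0 to 14.5 on MDSC arrays and 886 and 945 on ESC arrays. Pou5f1 was not well above background on any MDSC array. Of 9 myogenic progenitor markers, 5 to 7 were well above background on MDSC arrays. Myf5 was below on all 4 and Pax7 was above only on WT replicate 1, whereas Myod1 was above on all 4. Fibroblast markers summed to 1121 to 2060 on MDSC arrays, against 91.6 and 43.2 on ESC replicates 1 and 2.

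In MDSC versus ESC, Notch2 was the one member that rose, and Notch3, Dll1, Jag1, Jag2 and Mfng fell. By probe, 1 of the 11 tested rose, 6 fell and 4 did not pass. Dll1 and Jag2 were tested through the ESC arrays alone, so for them the filter set which side was high. Over all tested probes 27.3% rose and 31.5% fell, and 58.9% passed in either direction, so the total of 7 was near the background. The median difference was -0.86 over the 11 probes and -0.05 over all probes. The arrays of the 2 cell kinds did not overlap for 8 of the 11 probes, against 68.7% of all probes.

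**Figure D1:**
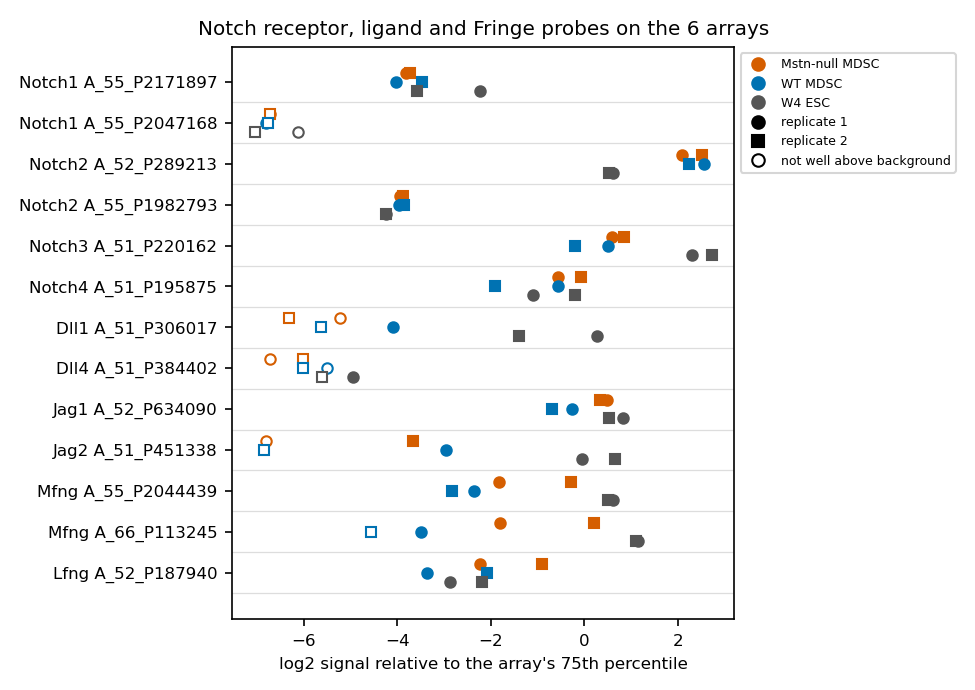
Level of each of the 13 probes on each of the 6 arrays, as log2 signal relative to the array's 75th percentile. Colours mark Mstn-null MDSC, WT MDSC and W4 ESC, circles replicate 1 and squares replicate 2, and open symbols a probe not well above background. Notch2 A_52_P289213 lies to the right in MDSC, and Notch3, Dll1, Jag2 and Mfng lie to the right in W4 ESC.

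Notch2, a receptor that signals in muscle and many other tissues, rose in MDSC. Its probe A_52_P289213 read 2.08 and 2.51 in Mstn-null MDSC, 2.56 and 2.23 in WT MDSC, and 0.61 and 0.53 in W4 ESC. All 4 MDSC arrays were above both ESC arrays, and the genotypes overlapped. The difference was 1.77 ± 0.20 (SE), or 3.41-fold, with an adjusted p of 0.00188 (limma). It was 1.72 for Mstn-null MDSC versus ESC (adjusted p = 0.00376) and 1.82 for WT MDSC versus ESC (adjusted p = 0.00343).

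A second Notch2 probe, A_55_P1982793, was dim everywhere but well above background on all 6 arrays. It read -3.94 and -3.89 in Mstn-null MDSC, -3.96 and -3.85 in WT MDSC, and -4.23 and -4.24 in W4 ESC. The order of the cell kinds was the same as for the bright probe, with no overlap, but the difference of 0.33 ± 0.14 (SE) did not pass (adjusted p = 0.0904). The probes thus gave differences of unlike size, and the part of the transcript that each one binds is not given in the sources used here.

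Notch3, a receptor best known from pericytes and vascular smooth muscle, fell in MDSC. Its probe read 0.60 and 0.85 in Mstn-null MDSC, 0.51 and -0.19 in WT MDSC, and 2.29 and 2.72 in W4 ESC. Both ESC arrays lay above all MDSC arrays, and the lowest array was WT replicate 2. The difference was -2.07 ± 0.27 (SE), a level 4.19-fold lower in MDSC (adjusted p = 0.00282), and it passed in Mstn-null MDSC versus ESC (-1.78, adjusted p = 0.00781) and in WT MDSC versus ESC (-2.35, adjusted p = 0.00391). Among 11 other markers of pericytes and smooth muscle, 9 were tested, and 5 rose, 1 fell and 3 did not pass. Pdgfrb rose by 5.24 on the log2 scale, whereas Mcam fell with Notch3 (-1.45, adjusted p = 0.00236), and Tagln and Cnn1 overlapped between the cell kinds. Kcnj8 was well above background on no array. Their summed signal, most of it from Acta2 and Tagln, was 752 and 724 in Mstn-null MDSC, 760 and 423 in WT MDSC, and 83.7 and 320 in W4 ESC. In such bulk samples, fewer cells of a type and less RNA per cell cannot be told apart.

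Notch1, the most widely used of the receptors, gave no call. Probe A_55_P2171897 read -3.80 and -3.73 in Mstn-null MDSC, -4.04 and -3.47 in WT MDSC, and -2.23 and -3.58 in W4 ESC. ESC replicate 1 stood alone, and ESC replicate 2 lay inside the MDSC range. The difference of -0.86 ± 0.42 (SE) did not pass (adjusted p = 0.133). It was -1.53 with an adjusted p of 0.0211 without ESC replicate 2, and it was -0.18 without ESC replicate 1. The other Notch1 probe, A_55_P2047168, stayed below that mark on all 6 arrays, with readings from -7.05 to -6.11, and was not tested.

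Notch4, a receptor known mainly from endothelium, did not differ beyond its spread. It read -0.57 and -0.07 in Mstn-null MDSC, -0.56 and -1.92 in WT MDSC, and -1.10 and -0.20 in W4 ESC, and the 3 groups overlapped. The difference was -0.13 (95% interval -1.36 to 1.11, adjusted p = 0.832), which leaves room for a change of more than a doubling either way. Endothelial markers, with the same 14 genes summed, lay at 23.8 and 25.1 in Mstn-null MDSC, 24.6 and 23.2 in WT MDSC, and 39.2 and 38.4 in W4 ESC. Egfl7, at 4.32 and 4.24 in W4 ESC and 1.24 to 1.87 in MDSC, gave a large part of the ESC sums. The mean log2 level of the 14 was -3.14 and -3.52 in Mstn-null MDSC, -3.15 and -3.90 in WT MDSC, and -2.39 and -2.22 in W4 ESC. Of these markers Tie1, Emcn and Erg were well above background on no array, and Cdh5 was so on the 4 MDSC arrays alone.

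Promoter sequences of the receptors that moved in opposite directions are shown to let the base composition of their start regions be compared. RefSeq windows of GRCm38.p6, with 250 bases before and 50 after the start, were listed for 9 of the 10 genes. Capitals mark CG dinucleotides, which a script counted 41 times for Notch2 at chr3:98013288-98013587 (plus strand) and 25 times for Notch3 at chr17:32166841-32167140 (minus strand), against a median of 7 over 32851 mouse promoters.
Notch2: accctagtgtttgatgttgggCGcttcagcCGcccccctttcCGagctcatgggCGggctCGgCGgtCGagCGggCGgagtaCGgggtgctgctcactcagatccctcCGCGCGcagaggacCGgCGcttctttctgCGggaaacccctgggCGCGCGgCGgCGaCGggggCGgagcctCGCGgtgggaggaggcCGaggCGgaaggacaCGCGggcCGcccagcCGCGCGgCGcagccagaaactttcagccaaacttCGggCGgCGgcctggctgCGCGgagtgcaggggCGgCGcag
Notch3: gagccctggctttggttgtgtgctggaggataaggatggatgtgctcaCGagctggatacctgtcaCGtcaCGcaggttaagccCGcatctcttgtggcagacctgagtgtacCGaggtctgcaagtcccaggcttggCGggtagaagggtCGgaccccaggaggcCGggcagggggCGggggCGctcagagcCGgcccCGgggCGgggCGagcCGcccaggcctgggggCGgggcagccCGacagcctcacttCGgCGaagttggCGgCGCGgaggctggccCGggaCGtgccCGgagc
Of the 10 member windows, 9 held more CG than that median, so both the receptor that rose and the one that fell had CG-rich starts. The window of Jag2 held 63, the highest of the members, and that of Notch4 held 5, the lowest.

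Dll1 and Dll4, Delta-like ligands, were close to background in MDSC. Dll1 is spotted 10 times on the array, so its probe also gives a spread within an array. Mean levels were -5.22 and -6.31 in Mstn-null MDSC, -4.10 and -5.63 in WT MDSC, and 0.27 and -1.40 in W4 ESC. All 10 spots were well above background on each ESC array, 8 were on WT replicate 1, and 0 of 10 were on each of the other 3 MDSC arrays. The spots of an array had an SD of 0.31 to 0.70 in MDSC and of 0.04 and 0.06 in W4 ESC. This measures the spread within an array only. Between arrays the SD of the mean levels was 0.93 in MDSC and 1.18 in W4 ESC.

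Dll1 fell in MDSC, with a difference of -4.75 ± 0.70 (SE, adjusted p = 0.00406, limma). Of the 4 MDSC arrays only WT replicate 1 measured it above background, so this size is the fit's value and not a measured fold. Dll1 was tested through the ESC arrays alone, so the filter set which side was high and the p-values add no support for the direction. It passed in Mstn-null MDSC versus ESC (adjusted p = 0.00567) and in WT MDSC versus ESC (-4.30, adjusted p = 0.0103). Because Dll1 was not well above background on either Mstn-null array, the Mstn-null comparison is given as a bound on the group means. By this bound Dll1 was 16.6-fold higher in W4 ESC. On each dim array it takes the higher of that array's lowest signal well above background and the probe's own signal. Such bounds, here and below, hold for this processing and make no allowance for the spread between arrays. Over the alternatives the Mstn-null difference ran from -6.03 to -2.49. In MDSC versus ESC the size also depended on the processing. It was -2.42 with normexp background correction and quantile normalization together, still past the threshold (adjusted p = 0.00513). WT replicate 1, the MDSC array with the highest Dll1, was also the array on which 16 muscle differentiation markers summed to 503, against 56.4 and 44.9 in Mstn-null MDSC, 55.6 in WT replicate 2, and 35.9 and 40.9 in W4 ESC, where Mymx gave most of the sum. The mean log2 level of these markers was 0.25 and -0.24 in Mstn-null MDSC, 3.64 and 0.44 in WT MDSC, and -1.86 and -1.76 in W4 ESC. The part of those cells in the Dll1 signal was not tested.

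**Figure D2:**
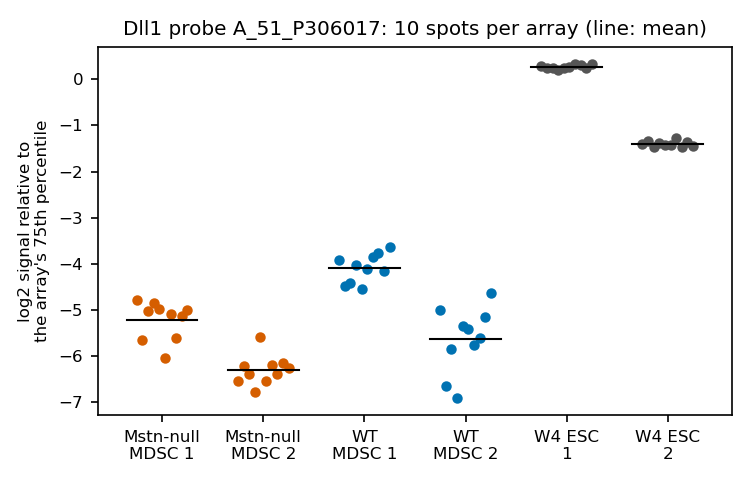
Each of the 10 Dll1 spots on each array, as log2 signal relative to the array's 75th percentile, with a line at the array's mean. Means were -5.22 and -6.31 in Mstn-null MDSC, -4.10 and -5.63 in WT MDSC, and 0.27 and -1.40 in W4 ESC, and spots of the cell kinds do not overlap.

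Dll4, a ligand known from sprouting vessels, was read at -6.73 and -6.02 in Mstn-null MDSC, -5.49 and -6.01 in WT MDSC, and -4.95 and -5.61 in W4 ESC. It was well above background only on ESC replicate 1 and was not tested, so no fold is given.

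Both Jagged ligands fell in MDSC versus ESC. Jag2 read -6.81 and -3.66 in Mstn-null MDSC, -2.95 and -6.84 in WT MDSC, and -0.06 and 0.65 in W4 ESC. One isolation of each genotype was well above background, Mstn-null replicate 2 and WT replicate 1, and the other isolation was not, so within each genotype the isolations lay more than 3 log2 units apart. The fitted difference of -5.36 ± 1.38 (SE, 95% interval -8.90 to -1.82, adjusted p = 0.0234) rested on both ESC arrays: it was -5.72 without ESC replicate 1 (adjusted p = 0.0863) and -5.00 without ESC replicate 2 (adjusted p = 0.121). With normexp and quantile normalization it was -3.07 (adjusted p = 0.00324). Mstn-null MDSC versus ESC was -5.53 (adjusted p = 0.0359) and was lost without either ESC array or without Mstn-null replicate 1 (-3.95, adjusted p = 0.135), and with no filter on dim probes (adjusted p = 0.0559). WT MDSC versus ESC was -5.19 (adjusted p = 0.0439) and was lost without either ESC array or without WT replicate 2 (-3.25, adjusted p = 0.134), with no filter (adjusted p = 0.0663) and with quantile normalization (adjusted p = 0.0513).

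Jag1, a ligand of the vessel wall and many other tissues, read 0.48 and 0.34 in Mstn-null MDSC, -0.25 and -0.69 in WT MDSC, and 0.83 and 0.52 in W4 ESC. The 3 groups did not overlap, with Mstn-null MDSC between the other two and close to ESC. The difference of -0.70 ± 0.20 (SE, adjusted p = 0.0313), a level 1.63-fold lower in MDSC, passed narrowly. It came from the WT arrays, at -1.14 for WT MDSC versus ESC (adjusted p = 0.0127), whereas Mstn-null MDSC versus ESC, within 1 slide, was -0.26 (95% interval -0.85 to 0.33, adjusted p = 0.374). The call was lost in 9 of 16 alternatives, among them leaving out any array but WT replicate 1 (adjusted p = 0.0552 to 0.133).

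Among the Fringe genes, Mfng fell in MDSC and Lfng did not pass. Mfng probe A_66_P113245 read -1.80 and 0.21 in Mstn-null MDSC, -3.50 and -4.56 in WT MDSC, and 1.14 and 1.10 in W4 ESC. This probe was not well above background on WT replicate 2. Its differences that use that array, here and below, are the fit's values and not measured folds. Probe A_55_P2044439 read -1.82 and -0.28 in Mstn-null MDSC, -2.35 and -2.83 in WT MDSC, and 0.60 and 0.51 in W4 ESC. Both probes put the 6 arrays in the same order of groups, with W4 ESC highest, Mstn-null MDSC next and WT MDSC lowest, and with no overlap.

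The Mfng differences in MDSC versus ESC were -3.53 ± 0.63 and -2.38 ± 0.46 (SE) for these probes, with adjusted p-values of 0.00743 and 0.00946. They passed in WT MDSC versus ESC, at -5.15 (adjusted p = 0.00477) and -3.15 (adjusted p = 0.00762). In Mstn-null MDSC versus ESC they did not, at -1.91 (adjusted p = 0.0778) and -1.61 (adjusted p = 0.0525), although both became calls without Mstn-null replicate 2, at -2.92 (adjusted p = 0.0234) and -2.38 (adjusted p = 0.0142). Without ESC replicate 1 or 2, the second probe's adjusted p in MDSC versus ESC was 0.0546 or 0.0540.

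Macrophage and immune markers moved with Mfng among the MDSC arrays. The mean level of the 11 such markers with a probe was 2.10 and 4.16 in Mstn-null MDSC, 0.65 and -1.14 in WT MDSC, and -3.83 and -3.19 in W4 ESC, and their summed signal was 110 and 327, 68.9 and 50.6, and 17.6 and 11.5 in the same order of arrays. The order of the 4 MDSC arrays was the same for these markers as for both Mfng probes, and the ESC arrays, with the highest Mfng, had the lowest marker levels. Notch3 had this order of the MDSC arrays too, and 4 arrays allow few orders, so the match is not particular to Mfng. The part of immune cells in the Mfng or Notch3 values was not tested.

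**Figure D3:**
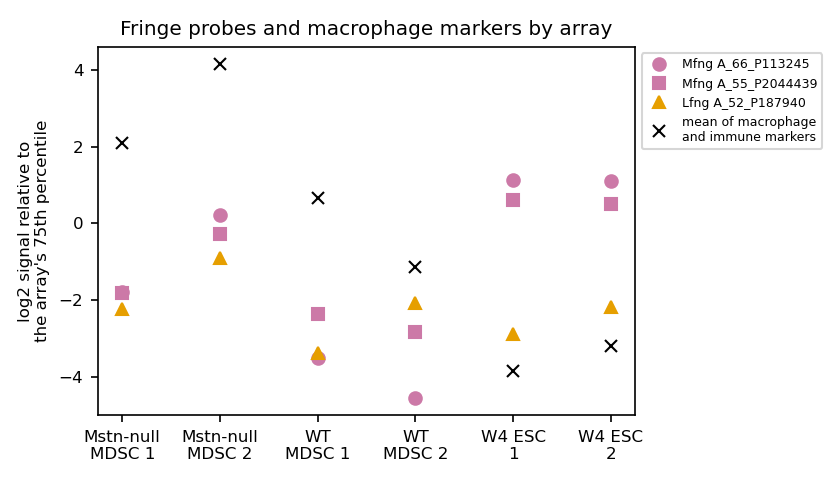
Levels of the Mfng and Lfng probes and the mean level of 11 macrophage and immune markers on each array, as log2 signal relative to the array's 75th percentile. On MDSC arrays Mfng and the markers share one order, with Mstn-null replicate 2 highest and WT replicate 2 lowest, while on ESC arrays Mfng is high and the markers are low.

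Lfng, which in mouse embryos cycles with the segmentation clock, read -2.23 and -0.91 in Mstn-null MDSC, -3.37 and -2.07 in WT MDSC, and -2.87 and -2.18 in W4 ESC. The groups overlapped, and the difference of 0.38 (95% interval -1.04 to 1.80) did not pass (adjusted p = 0.582). Its promoter and that of Hes5, a classic Notch target, are shown because both carry the core RBPJ motif TGGGAA. Both strands were searched, and 25.6% of the 32851 promoters hold it. The E-box CANNTG, which 72.3% of them hold, shares 2 letters with the second Lfng match. Capitals mark the matches, 2 in Lfng at chr5:140607091-140607390 (plus strand) and 2 in Hes5 at chr4:154960673-154960972 (plus strand).
Lfng: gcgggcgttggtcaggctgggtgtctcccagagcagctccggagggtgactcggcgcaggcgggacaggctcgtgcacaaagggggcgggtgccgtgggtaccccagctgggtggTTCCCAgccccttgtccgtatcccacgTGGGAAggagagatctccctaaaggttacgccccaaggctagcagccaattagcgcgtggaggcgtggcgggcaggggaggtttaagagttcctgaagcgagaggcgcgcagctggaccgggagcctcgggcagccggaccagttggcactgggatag
Hes5: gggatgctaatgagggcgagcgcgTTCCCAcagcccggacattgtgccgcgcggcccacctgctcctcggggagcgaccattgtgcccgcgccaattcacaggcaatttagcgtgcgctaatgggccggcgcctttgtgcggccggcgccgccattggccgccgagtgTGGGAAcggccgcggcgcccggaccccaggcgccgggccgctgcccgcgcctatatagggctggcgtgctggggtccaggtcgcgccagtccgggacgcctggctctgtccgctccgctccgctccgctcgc
Lfng was the one member of the 9 listed whose window held this motif. A match describes the letters alone.

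**Figure D4:**
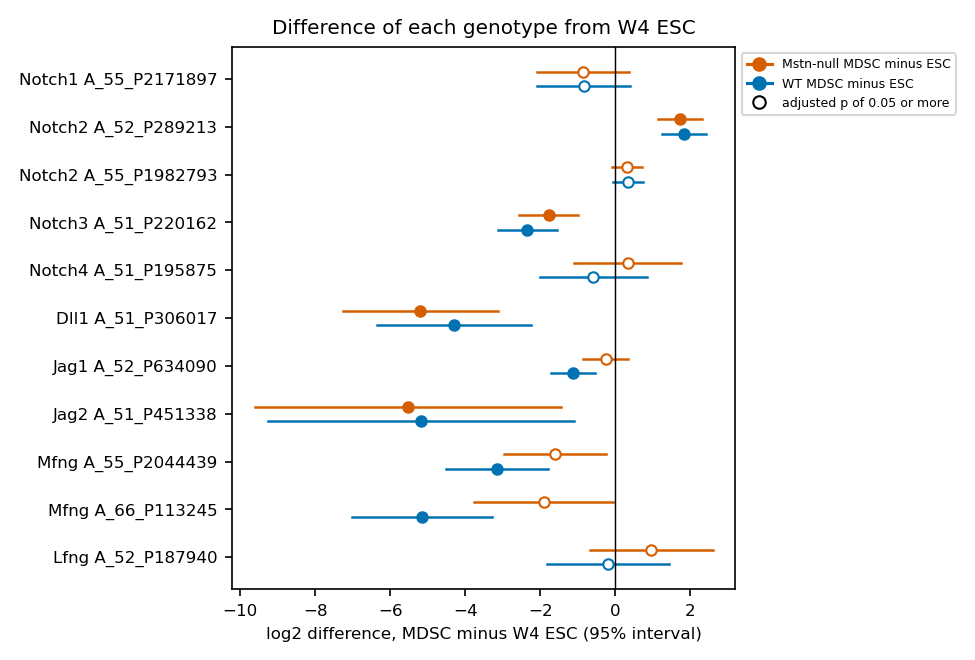
Difference of Mstn-null MDSC and of WT MDSC from W4 ESC for the 11 tested probes, in log2 units with 95% intervals; open circles did not pass. Notch2 A_52_P289213, Notch3, Dll1 and Jag2 passed in both comparisons, and Jag1 and Mfng passed in WT MDSC only.

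By genotype, the comparisons with ESC use the same ESC arrays and are not independent. In Mstn-null MDSC versus ESC, 1 of the 11 probes rose and 3 fell, where 22.5% and 31.0% of all probes did, or 53.5% together. The arrays did not overlap for 9 of the 11, against 80.8% of all probes. In WT MDSC versus ESC, 1 rose and 6 fell, where 26.5% and 26.1% of all probes did, or 52.6% together, and the arrays did not overlap for 8 of the 11, against 80.4% of all probes. Dll1 and Jag2, which fell in both comparisons, were tested through the ESC arrays alone, so for them the filter set which side was high. That Jag1 and both Mfng probes passed in one genotype alone does not show that the genotypes differ; the direct test of that is the comparison between them.

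In Mstn-null versus WT MDSC, no member passed, and 8 of 33714 probes passed in all, 0.0237%, with 0.0148% higher and 0.00890% lower in Mstn-null MDSC. Of the 11 member probes, 0 passed with limma and 3 had an unadjusted p under 0.05, against 14.7% of all probes. These were Jag1 and both Mfng probes. Jag1 was 0.88 ± 0.23 (SE) higher in Mstn-null MDSC (adjusted p = 0.189), and Mfng was 3.23 ± 0.73 and 1.54 ± 0.53 higher by probes A_66_P113245 and A_55_P2044439 (adjusted p = 0.150 and 0.287). For Jag1, both Mfng probes and Notch3, 4 of 11, both Mstn-null arrays were above both WT arrays, and 51.5% of all probes had no overlap in one direction or the other.

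None of the other 8 probes tested passed either. Notch3 differed by 0.56 (95% interval -0.23 to 1.36) and Notch2 A_52_P289213 by -0.10 (95% interval -0.69 to 0.48), so for Notch2 the interval leaves out a doubling in either direction. For Jag2 the interval ran from -4.43 to 3.75 and for Dll1 from -2.96 to 1.17, so neither leaves out a difference of several fold.

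The rest of the pathway was read from a list of 74 genes, grouped by role, each gene by its brightest probe. Of these, 70 had a probe and 68 were tested. In MDSC versus ESC 27 rose, 15 fell and 26 did not pass, with a median of 0.24 against -0.05 over all probes, of which 27.3% rose and 31.5% fell. The total of 42 was near the background of 58.9%. Dtx1, Nrarp and Ptcra, which fell, were tested through the ESC arrays alone, and Epha3, which rose, through the MDSC arrays alone. For these genes the filter set which side was high. With 1 array left out, 21 to 23 genes rose and 11 to 18 fell.

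The proteases that cut the receptor rose in MDSC. All 8 tested cleavage genes rose, with a median of 1.59, in a comparison in which 27.3% of all probes did. They include Furin, which cuts the receptor on its way to the membrane (2.40, adjusted p = 8.74e-04), Adam10, which makes the ligand-induced cut (2.14, adjusted p = 6.18e-04), and the gamma-secretase subunits Ncstn (1.77), Aph1a (1.42), Psenen (0.86) and Aph1b (3.29 ± 0.46 SE, adjusted p = 0.00344). Adam10 read 3.47 and 3.60 in Mstn-null MDSC, 3.31 and 3.58 in WT MDSC, and 1.39 and 1.30 in W4 ESC, with a gap between the cell kinds many times the spread within them. Adam17 and Psen2 rose by 0.72 and 0.94 with less margin, and their calls were lost without any of 5 of the 6 arrays, with adjusted p-values of 0.056 to 0.111 and 0.0514 to 0.169.

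Of 5 other glycosylation genes tested 3 rose and 0 fell, with a median of 0.63, namely the glycosyltransferases Poglut1 (0.63), Xxylt1 (0.70) and Eogt at 1.05 (adjusted p = 0.0275, or 0.0731 to 0.123 without Mstn-null replicate 1, ESC replicate 1 or ESC replicate 2). The Poglut1 call was lost without any of 5 of the 6 arrays (adjusted p = 0.0783 to 0.122), and that of Xxylt1 without either Mstn-null array or ESC replicate 1 (adjusted p = 0.0520 to 0.0641). Rfng, the third Fringe gene, did not pass (-0.33, adjusted p = 0.102). Of 7 other ligands 2 rose and 2 fell. The microfibril proteins Mfap5 (5.58) and Mfap2 (2.59), which are matrix proteins reported to bind Notch1 or its ligands, rose, and Dll3, a ligand that acts within the cell, fell. Dll3 read -1.74 and -1.81 in Mstn-null MDSC, -1.48 and -1.37 in WT MDSC, and 0.05 and 0.39 in W4 ESC, a difference of -1.82 (adjusted p = 0.00105). Egfl7, a secreted protein of endothelium, fell by 2.75.

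Of 6 ligand endocytosis genes 1 rose and 2 fell, against 27.3% and 31.5% of all probes. Neurl1b, a ubiquitin ligase for ligands, fell (-1.41, adjusted p = 0.00302), as did the epsin Epn2 (-0.67, adjusted p = 0.0208, or 0.0575 to 0.0909 without Mstn-null replicate 1, WT replicate 1 or ESC replicate 2). The epsin Epn1 rose by 0.49 (adjusted p = 0.0496), a call lost in 11 of 16 alternatives, each array left out among them (adjusted p = 0.0545 to 0.165). Of 11 receptor turnover genes 2 rose and 2 fell. Dtx1, a Deltex ubiquitin ligase, read between -6.87 and -5.76 in MDSC, below background on all 4 arrays, and 1.98 and 1.50 in W4 ESC. By the bound it was 83.8-fold higher in W4 ESC (adjusted p = 1.69e-04, limma), and its difference ran from -8.58 to -4.86 over the alternatives. It was tested through the ESC arrays alone, so the filter set which side was high. Numbl, a relative of the Notch inhibitor Numb, rose by 1.18, the kinase Aak1 rose by 1.49, and Fbxw7, which marks the intracellular part of Notch for degradation, fell by 1.04.

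In the nuclear complex 6 of 17 genes rose and 6 fell, both near the shares of 27.3% and 31.5% of all probes. Rbpj itself, the DNA-binding partner, did not pass (-0.29, adjusted p = 0.226). The Mastermind coactivators Maml2 (1.80) and Maml3 (2.69, adjusted p = 9.98e-04) rose, as did Maml1 (0.46, adjusted p = 0.0413), whose call was lost with any array left out (adjusted p = 0.0692 to 0.129). The coactivators Ep300 (-0.99) and Snw1 (-0.65) fell. Among corepressors, Bend6 (2.23) and Ctbp1 (0.85) rose and Spen (-1.10), Ncor1 (-0.91), Hdac1 (-0.95) and Tle3 (-0.65) fell. The call of Snw1 was lost without either Mstn-null array or ESC replicate 2 (adjusted p = 0.0518 to 0.0654), and that of Tle3 without either Mstn-null array (adjusted p = 0.0507 and 0.0524). Tle1, a Groucho corepressor, rose by 1.38, but the value was 0.39 (adjusted p = 0.201) among the arrays of slide 2. It read 1.23 and 1.43 in Mstn-null MDSC, 3.38 and 3.21 in WT MDSC, and 1.12 and 0.74 in W4 ESC, so the WT arrays, alone on slide 1, stood apart.

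**Figure D5:**
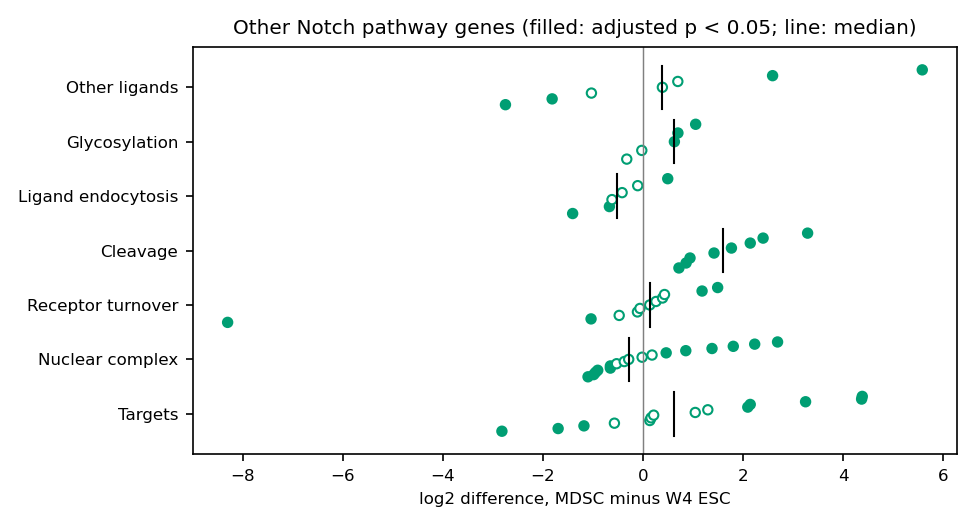
Log2 difference in MDSC versus W4 ESC of the 68 other Notch pathway genes tested, 1 point a gene, by role, with filled points past the threshold and a line at the median of each role. The 8 cleavage genes lie to the right of 0, and the other roles hold genes on both sides.

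Target genes did not move as a block. Of 14 tested, 5 rose, 3 fell and 6 did not pass, with a median of 0.63, where 27.3% and 31.5% of all probes rose and fell. Hes1 read 2.41 and 1.62 in Mstn-null MDSC, 2.15 and 1.15 in WT MDSC, and 0.29 and -0.91 in W4 ESC. It rose by 2.14 ± 0.49 (SE, adjusted p = 0.0164), or 1.54 without ESC replicate 2 (adjusted p = 0.0887). Hes5 moved the other way and read -3.32 and -3.88 in Mstn-null MDSC, -3.57 and -4.63 in WT MDSC, and -2.47 and -2.86 in W4 ESC. Its fall of -1.18 ± 0.37 (SE, adjusted p = 0.0410) was lost without any of 5 of the 6 arrays, with adjusted p-values of 0.0506 to 0.180.

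Nrarp, a feedback inhibitor that Notch induces, was below background on all MDSC arrays, between -6.56 and -5.50, and read -3.41 and -3.43 in W4 ESC. By the bound it was 2.35-fold higher in W4 ESC (adjusted p = 0.00127, limma), and its difference ran from -3.04 to -0.79 over the alternatives. Ptcra, a T-cell target, was likewise well above background on the ESC arrays alone and by the bound 1.39-fold higher there (adjusted p = 0.0135). The Ptcra call was lost without ESC replicate 2 (-1.48) and with normexp (-0.43, adjusted p = 0.0524). For Nrarp and Ptcra the filter set which side was high, so these p-values add no support for the direction. Hey1 did not pass (0.13, adjusted p = 0.856), nor did Heyl (1.04, adjusted p = 0.247), which was 2.18 without ESC replicate 1 (adjusted p = 0.0296) and -0.09 without ESC replicate 2. The 5 that rose were Hes1, Bhlhe40, Gata2 (3.25), Sox9 (4.37) and Epha3 (8.29-fold higher in MDSC by the bound), genes with regulators besides Notch. Bhlhe40 rose by 2.09 (adjusted p = 0.0194), a call lost without Mstn-null replicate 2 (1.95), ESC replicate 1 (1.95) or ESC replicate 2 (2.23). Epha3 was tested through the MDSC arrays alone, and its difference ran from 1.66 to 5.11 over the alternatives. Sox9 was not well above background on ESC replicate 2. Leaving out ESC replicate 1 gave 5.99 and leaving out ESC replicate 2 gave 2.75, and it did not pass on slide 2 (3.84, adjusted p = 0.0559).

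Between the genotypes 0 of the 68 genes passed with limma, and 5 had an unadjusted p under 0.05, where 14.7% of all probes did. The median was -0.03, against -0.13 over all probes. The nearest to the threshold were Tle1, at -1.97 (adjusted p = 0.0627), and Bend6, at 1.30 (adjusted p = 0.0776), both named after their values were seen.

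Many genes shared a member's pattern over the 6 arrays, which fall into 3 groups of cultures. Over 12447 genes that were well above background on each of the 6 arrays, the highest Pearson r was with Ghr for Notch2 (0.998), Cd2bp2 for Notch3 (0.999), AW549877 for Jag1 (0.983), Dip2b for Mfng (0.998), Zfp367 for Notch1 (0.988), Hscb for Notch4 (0.982) and Kif16b for Lfng (0.958). An r above 0.9 was reached by 3052 genes for Notch2 and 1384 for Notch3, whose values split by cell kind, but by 10 for Lfng, whose values did not. Jag1 and Mfng, which also split by cell kind, had 59 and 229 such genes. Notch1 and Notch4, which did not, had 115 and 33.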

How the data were processed

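Per the labels' protocols, 0.5 µg of RNA from each of 6 cultures was amplified, labelled with Cy3 and put on a 1-colour Agilent array. The deposited files hold each array's spot intensities from Agilent Feature Extraction; the file headers give its version as 10.7.1.1, the submitters' processing notes as 9.1. Per the file headers, the authors' processed intensity has its background corrected; it is not scaled between arrays. No p-value or fold of the authors was used.

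Levels are log2 of the processed signal minus the 75th percentile of the array over non-control spots. Spots with an outlier flag (100 to 122 an array) were left out, no spot was saturated, and log2 values of the spots of a probe were averaged. A probe counted as well above background if more than 0.5 of its spots did. Testing required this on both arrays of some group, met by 33714 of 55681 probes; 23 probes lacked a value. Names came from accessions through a RefSeq table of GRCm38.p6, in which 26413 probes matched 1 symbol. A single model of the 3 groups was fitted with lmFit, contrasts and eBayes of limma 3.58.1 (R 4.3.3, two-sided), and p-values were adjusted over all tested probes. With 2 arrays a group, the smallest exact permutation p is 0.333. Steps were tested on simulated data.

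The members, the pathway list and the marker lists were chosen with earlier results of these data known. Every member probe is named. Pathway genes are named where they passed or as examples of those that did not, and the examples were picked with their values known. Genes of like pattern are those with the highest r. Alternatives were median centring, quantile normalization, normexp at offset 50 (on median signals, as the files lack the planned mean signal) followed by quantile normalization, called normexp here, other filters, outlier spots kept, only the groups compared, 1 probe a gene, a robust variance trend, slide 2 alone, replicate blocks and leaving out each array. Probe sequences and coordinates were not used here.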

Additional observations from a re-analysis of the deposited data

How the results depend on the processing

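Notch2 A_52_P289213 and Notch3 kept their direction and their call in MDSC versus ESC under all 16 alternatives run, and Dll1 did so under all 15 that could test it. Dll1 entered the main fit through the ESC arrays alone. The filter thus set which side was high, and its kept direction adds no support. The member probes called lower in MDSC versus ESC numbered 3, against 6, when limited to probes well above background on all 6 arrays, on slide 2 alone, or without WT replicate 1 and ESC replicate 1 together (chosen after seeing the data), and 3 to 6 with 1 array left out. In WT MDSC versus ESC that filter gave 3 and leaving out 1 array 5 to 6. In Mstn-null MDSC versus ESC normexp called 2 higher, and leaving out 1 array 2 to 5 lower and 10693 to 17030 probes in all. Jag1 had adjusted p-values of 0.0798 with median centring, 0.0546 with no filter and 0.324 on slide 2, where both Mfng probes had 0.0761 and 0.0900.

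In Mstn-null versus WT MDSC the 8 calls over all probes became 26 with quantile normalization, 46 with median centring, 44 with normexp, 43 with probes well above background on all 6 arrays, 3 with only the groups compared, 3 with a variance trend, 0 with no filter, 0 with 1 probe a gene, 0 without the 2 arrays named above, and 0 to 105 with 1 array left out; no member passed in any of these. The labels number the isolations, but same-numbered isolations deviated in opposite directions (r = -0.375 over 33714 probes). The replicate block gave 0 calls, and the crossed replicate block, added after seeing the data, gave 167, with no member among them. Median centring moved the median of all probes in MDSC versus ESC to 0.10, against -0.05.

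Signs turned only in differences that had not passed. Notch4 in MDSC versus ESC was 0.33 on slide 2, 0.014 with median centring and -0.58 to 0.32 with 1 array left out. In Mstn-null MDSC versus ESC it was -0.12 without both named arrays (-0.12 to 0.78 with 1 left out), and in WT MDSC versus ESC -1.27 to 0.089 with 1 left out and -1.72 without both, where it passed (adjusted p = 0.0489). Without both arrays Jag2 did not pass in Mstn-null (-5.89, adjusted p = 0.0645) or WT MDSC versus ESC (-7.49, adjusted p = 0.0629). In WT MDSC versus ESC Lfng was 0.0090 with normexp and 0.11 without both arrays (-0.85 to 0.45), and Notch1 was 0.10 without both arrays (-1.52 to -0.18). Hey1 was -0.024 without both arrays (-0.35 to 0.62), and Heyl was -0.089 to 2.18. In Mstn-null versus WT MDSC Jag2 was 1.60 without both arrays (-2.28 to 1.60); Notch1 was 0.15 with quantile normalization and 0.15 with median centring (-0.30 to 0.27); Notch2 A_52_P289213 was 0.058 without both arrays and 0.056 with median centring (-0.32 to 0.11); and Notch2 A_55_P1982793 was 0.24 with normexp, 0.15 with quantile normalization and 0.15 with median centring (-0.067 to 0.044). The cause was not tested. Signal close to background limits Dll1, Dll4, Jag2, the second Notch1 probe and, on WT replicate 2, Mfng A_66_P113245.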
